A study of Mus musculus with 15 samples.

Results

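The 10 heat shock chaperones described here are Hspa1a, Hspa1b, Hspa8, Hsph1, Hspb1, Dnajb1, Hsp90aa1, Hsp90ab1, Hspd1 and Hspe1. They were taken by gene symbol from a table of 24347 entries, and all 10 were present and passed the filter on low values. RNA-seq was performed on wild-type primary mouse hepatocytes, the parenchymal cells of the liver, after collagenase digestion and plating. The mice were 8 to 10 weeks old. There were 5 groups of 3 libraries: glucagon (100 nM) with recombinant IL-13 (10 ng/mL), glucagon (100 nM) alone, cAMP (100 µM) with IL-13 (10 ng/mL), cAMP (100 µM) alone, and vehicle. IL-13 was added 2 h before the stimulus and kept during the 3 h of stimulation, so no group received IL-13 alone. All groups shared the digestion and the culture, and no library of undigested liver was analysed here. The strain is given as C57BL with a running number in the labels and as BALB/c in the study's methods. No source tells whether the 3 libraries per group are separate mice or cultures, so p-values measure only the spread between libraries, which may be technical.

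Heat shock chaperones bind unfolded or partly folded proteins and keep them from clumping. Several of them are switched on within minutes when damaged protein frees heat shock factor 1 (HSF1), which then binds heat shock elements in their promoters. HSP70 proteins (Hspa1a, Hspa1b and Hspa8) work in cycles of ATP use, with DNAJ proteins such as Dnajb1 to start the cycle and HSP110 proteins such as Hsph1 to exchange the nucleotide. HSP90 proteins finish the folding of kinases and steroid receptors, small heat shock proteins such as Hspb1 hold clients without ATP, and Hspd1 with its lid Hspe1 forms the folding chamber of mitochondria. Glucagon acts on hepatocytes through cAMP and raises glucose output in fasting, and IL-13 signals through STAT proteins.

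The promoters are shown first because the heat shock element is what most of these genes have in common. RefSeq windows of 300 bases on GRCm38.p6, from 250 bases before to 50 after a start site, were found for 7 of the 10 members, with 10 windows in all. Hspa8, Hsp90aa1 and Hsp90ab1 had no window in the table used. A pair of heat shock units, GAANNTTC or TTCNNGAA, each of which reads the same on both strands, was found in 6 of these 7 members, all but Dnajb1. Among all 32851 windows of that length 15.1% held either pair. This share is per window, while a member counts if any of its windows holds a pair, and 1 Hspd1 window held none. A run of 3 alternating units, which contains overlapping pairs, was found in 3 members (Hspd1, Hspe1 and Hsph1) and in 0.603% of all windows. In Hsph1 this run begins 36 or 15 bases after the start site, depending on the window, and not before it. In the sequences below the capitals mark the paired units, and the bases are read 5′ to 3′ on the strand of the gene.
Hspe1, chr1:55088053-55088082, plus strand: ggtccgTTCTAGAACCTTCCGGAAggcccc
Hspd1, chr1:55088053-55088082, minus strand: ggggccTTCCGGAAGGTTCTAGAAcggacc
Hspa1a, chr17:34972247-34972266, minus strand: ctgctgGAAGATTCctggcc
Hspa1b, chr17:34959329-34959348, minus strand: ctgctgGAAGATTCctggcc
Hspb1, chr5:135887796-135887835, plus strand: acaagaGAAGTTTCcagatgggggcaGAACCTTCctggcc
Hsph1, chr5:149636356-149636375, minus strand: gaatctTTCTCGAAggctcg
Hsph1, chr5:149636287-149636306, minus strand: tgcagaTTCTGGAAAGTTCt

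Hspd1 and Hspe1 lie head to head on chromosome 1, and 1 window of each overlapped by 285 bases. The element printed for these genes is therefore a single stretch of DNA read on opposite strands, with its first unit 89 bases before the start of Hspe1. Hspa1a and Hspa1b lie close together on chromosome 17 and carried the same printed stretch, and their whole windows differed at 4 of 300 bases (98.7% identical). Hspd1 with Hspe1, and Hspa1a with Hspa1b, are therefore not independent in the counts of members with a motif. The cAMP response element TGACGTCA was found in 0 of the 7 members, against 1.79% of all windows. Its shorter form TGACG, which overlaps it, was found in 4 members, against 20.8% of windows. The STAT motif TTCNNNGAA was found in 0 members (8.3% of windows), TATAAA in 0 (13.6%) and CCAAT in 5 (37.4%), with both strands searched. A match describes letters only, and a motif not found says only that these letters are not in this window.

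The members covered a wide range of levels. Compared per length, as FPKM (fragments scaled for transcript length and library size), Hsp90ab1 averaged 843.5, Hspa8 837 and Hspb1 823.7 over the 15 libraries. A cytosolic HSP90, the constitutive HSP70 and a small heat shock protein thus stood at about the same level per length, at ranks 108, 109 and 112 of all 24347 entries. Hspd1 (249 FPKM), Hsp90aa1 (245 FPKM) and Hspe1 (167 FPKM) formed a middle tier. Hsph1 averaged 21.8 FPKM and Dnajb1 8.97 FPKM. The heat-inducible HSP70 genes were at the bottom, with 0.667 FPKM for Hspa1b and 0.196 FPKM for Hspa1a. Per library, the FPKM of Hspa8 was 517 to 1253 times the summed FPKM of Hspa1a and Hspa1b. The lowest ratio was that of vehicle library a, described below. There the summed FPKM was 1.44, against 0.989 and 1.01 in the other vehicle libraries. The order of neighbours with close means is not firm: the libraries of Hsp90ab1, Hspa8 and Hspb1 overlapped in FPKM, as did those of Hspd1 and Hsp90aa1.

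**Figure D1:**
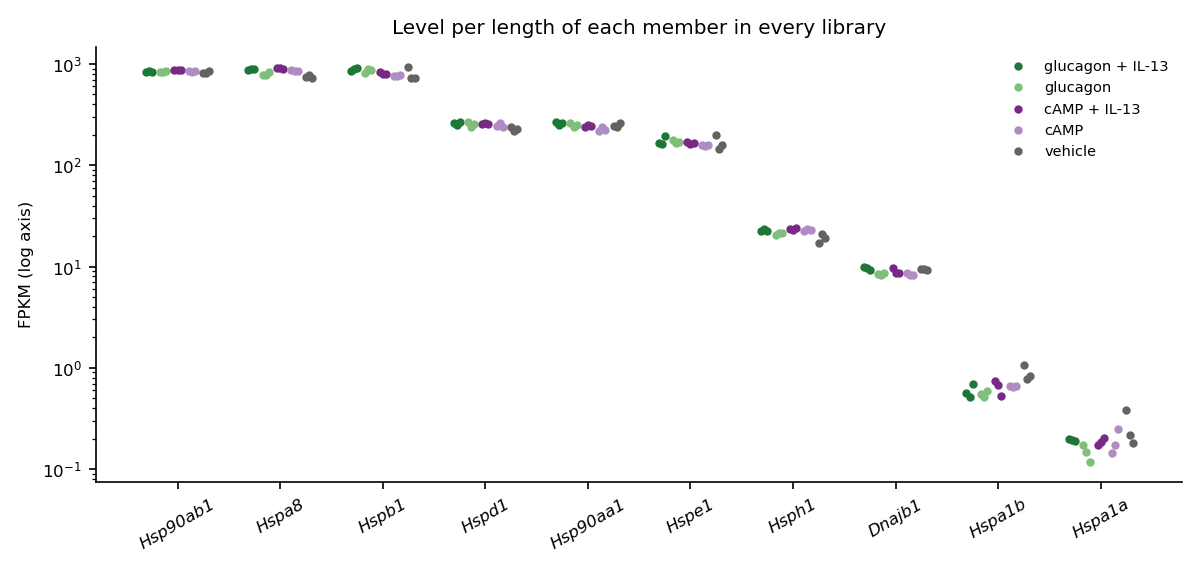
FPKM of each member in every library on a log axis, with members ordered by their mean and groups in colour. The inducible Hspa1b and Hspa1a sit far below the other members in all 15 libraries, at averages of 0.667 and 0.196 FPKM.

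Each library held an estimated 15567724 to 24246024 reads. The labels of the cAMP libraries conflict, with cAMP in the title and control in the description, and the columns were matched by title. Pck1, the gluconeogenic enzyme that cAMP switches on, stood at 18026 to 18769 scaled reads in the cAMP columns, against 1015 to 1192 in the vehicle columns. Hepatocyte markers were high, with summed levels of 22100 to 28010 FPKM over 10 genes, none of them at 0. Summed Kupffer cell markers stood at 192 to 227 FPKM, endothelial markers at 20.3 to 27.8 FPKM, stellate cell markers at 4.90 to 7.13 FPKM and lymphocyte markers at 0.583 to 1.01 FPKM. The cholangiocyte list, nearly all of it Spp1 (mean 603 FPKM, with Krt19, Krt7, Epcam and Cftr at means of 0.574 or less), summed to 636 to 654.5 FPKM in glucagon with IL-13, against 569 to 582 in glucagon alone, and to 634 to 649 in cAMP with IL-13, against 571 to 594 in cAMP alone and 620 to 647 in vehicle. The part of these cells in the results was not tested. In bulk RNA, fewer cells of a type and less RNA per cell cannot be told apart. Vehicle library a stood apart from its group. Its log2 levels differed from those of the other vehicle libraries with an SD of 0.309 over 8250 genes, against at most 0.202 for any other library and its group. The difference ran with transcript length (r = -0.608 over 9141 genes, which share the library), with short transcripts higher in vehicle a. Among the members, Hspa1a, which has few reads, deviated most there, higher by 0.63 (log2) than in the other vehicle libraries. Hspe1 was higher by 0.30 and Hspd1 by 0.21, and Hsph1 was lower by 0.15. Results against vehicle are therefore also given without this library where it changes a call.

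Inducible HSP70 expression, read as Hspa1b and as the sum of Hspa1a and Hspa1b, fell with glucagon. Hspa1b had 44.6, 45.5 and 51.6 scaled reads (reads brought to a common depth) in glucagon libraries, against 76.6, 70.2 and 74.1 in vehicle libraries. The groups did not overlap. On the scale of log2(scaled reads + 1) the difference was -0.63 ± 0.15 (SE, n = 3 each), a change of -35.5% (adjusted p = 0.00484, limma). Hspa1a had 14.1, 13.3 and 10.3 scaled reads with glucagon, against 28.3, 19.9 and 16.2 with vehicle. These libraries did not overlap either, but with a difference of -0.70 ± 0.26 the call was missed (adjusted p = 0.0664, limma). Without vehicle c it was -0.88 and was called (adjusted p = 0.0364, limma). With each library left out in turn it ranged from -0.88 to -0.49, with adjusted p up to 0.227 (limma). Values of either gene alone are uncertain, since 58.8% of all 50-base stretches of Hspa1a and 62.3% of those of Hspa1b occur in the other gene.

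The sum of both genes does not depend on how reads were split between them. It can still depend on reads shared with further genes. Gm20481 holds 16.2% of the 50-base stretches of Hspa1a and 10.8% of those of Hspa1b. The sum of Hspa1a and Hspa1b was 58.7, 58.8 and 62.0 scaled reads with glucagon, against 104.9, 90.1 and 90.3 with vehicle. It changed by -36.6% (95% interval -47.4% to -23.5%, adjusted p = 0.00105, limma). The call on the sum held when each of the 15 libraries was left out in turn, with differences from -0.69 to -0.58 and adjusted p up to 0.00521 (limma). With cAMP the sum was 72.3, 71.9 and 84.1 scaled reads, and no cAMP library reached the vehicle libraries. The difference of -0.32 ± 0.13 was not called (adjusted p = 0.0787, limma). The step between glucagon and cAMP itself was -0.34 ± 0.13 (adjusted p = 0.188, limma), so the stimuli were not shown to differ. With IL-13 added, the sum was 72.3, 63.9 and 74.9 scaled reads in glucagon, all 3 above the glucagon libraries, with a difference of 0.23 ± 0.13 (adjusted p = 0.372, limma). In cAMP with IL-13 it was 82.2, 78.5 and 64.5 scaled reads, which spanned the cAMP libraries.

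Hspa8, the constitutive HSP70 that does much of the cell's routine folding, rose with cAMP. It had 31087, 31892 and 30181 scaled reads with cAMP, against 28031, 27675 and 26557 with vehicle. Every cAMP library lay above every vehicle library. The difference was 0.18 ± 0.04 (SE, n = 3 each), a 13.2% higher level (95% interval 6.87% to 20.0%, adjusted p = 0.00228, limma), and it was called under all 23 settings tried. With glucagon Hspa8 had 29349.8, 28306 and 30463 scaled reads, again above vehicle in every library, but the difference of 0.10 ± 0.04 was not called (adjusted p = 0.0953, and 0.0407 without vehicle a, limma). With each library left out in turn this difference ranged from 0.07 to 0.13, with adjusted p up to 0.31 (limma). With IL-13, Hspa8 stood at 31402, 32038 and 33319 scaled reads in glucagon, all above glucagon alone. That difference of 0.14 ± 0.04 narrowly missed the threshold (adjusted p = 0.0552, limma), and passed it without vehicle library a (adjusted p = 0.0186) or c (adjusted p = 0.0409, limma), which enter only through the shared estimate of the spread. With each library left out in turn it ranged from 0.11 to 0.16, with adjusted p up to 0.192 (limma). In cAMP with IL-13 Hspa8 had 32166, 33245 and 32359.8 scaled reads, and the difference from cAMP alone was 0.07 ± 0.04 (adjusted p = 0.527, limma). A share of 74.8% of the 50-base stretches of Hspa8 also occurs in transcripts of other genes. Among these are the processed pseudogene Gm15459 (70% of the stretches) and the long noncoding RNA Gm26825 (69%). The count of Hspa8 therefore rests on how such reads were placed.

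Hsph1, the HSP110 that helps HSP70 exchange its nucleotide, rose with both stimuli. It had 1332, 1336 and 1355 scaled reads with glucagon, 1367, 1491 and 1389 with cAMP, and 1106, 1263 and 1190 with vehicle. All stimulated libraries lay above all vehicle libraries. With cAMP the difference was 0.26 ± 0.06 (19.4% higher, 95% interval 9.97% to 29.6%, adjusted p = 0.00219, limma). It was called under 22 of 23 settings. With glucagon it was 0.18 ± 0.06 (13.2% higher, adjusted p = 0.0324, limma), but this call was lost under 8 of 23 settings. Among these were leaving out vehicle a (adjusted p = 0.0913), vehicle c (0.0549), glucagon 1 (0.0591), glucagon 2 (0.0699) or glucagon 3 (0.0909, limma). None of the 50-base stretches of Hsph1 was found in another gene (0 of 3753). With IL-13 Hsph1 had 1396, 1439 and 1438 scaled reads in glucagon and 1428, 1455 and 1479 in cAMP. The differences from the stimulus alone were 0.09 ± 0.06 and 0.04 ± 0.06 (adjusted p = 0.461 and 0.898, limma).

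**Figure D2:**
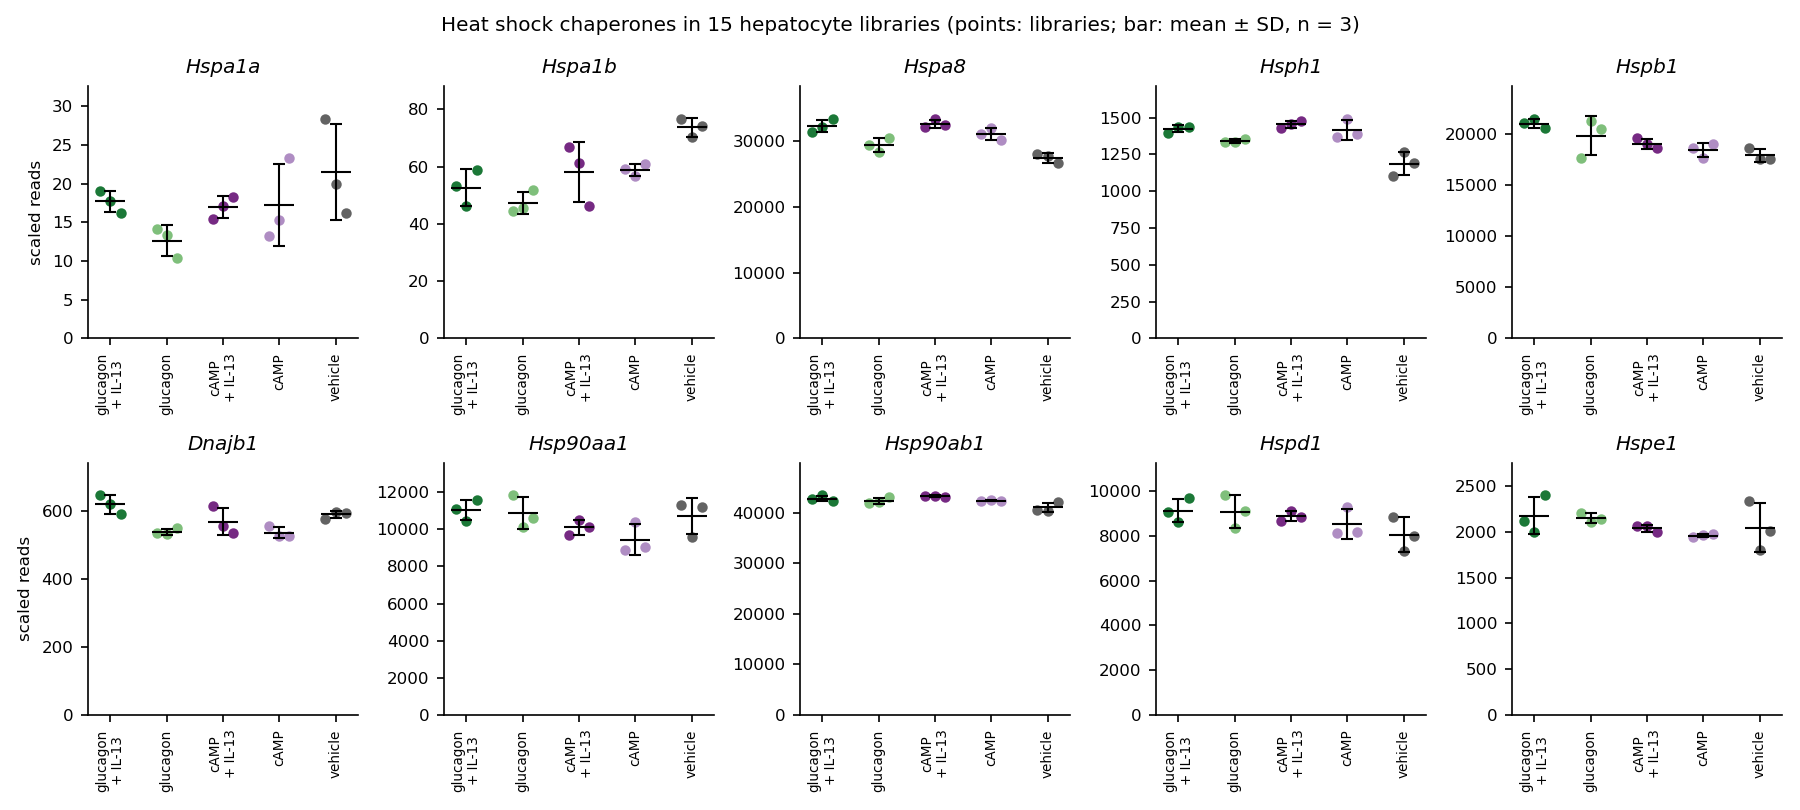
Scaled reads of the 10 members in all 15 libraries, by group, with the mean and SD of 3 libraries. Hspa1b lies lower in glucagon (44.6 to 51.6) than in vehicle (70.2 to 76.6), and Hsph1 higher in every stimulated library than in vehicle (1106 to 1263).

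Dnajb1, the HSP40 that hands clients to HSP70, was not called in any comparison. It had 535, 532 and 548 scaled reads with glucagon, 554, 526 and 527 with cAMP, and 577, 597 and 594 with vehicle. The stimulated libraries all lay below the vehicle libraries, yet the differences of -0.13 ± 0.06 with glucagon and -0.14 ± 0.06 with cAMP were not called (adjusted p = 0.182 and 0.131, limma). In glucagon with IL-13 the values were 645, 621 and 591 scaled reads, all above glucagon alone. The difference was 0.20 ± 0.06 (adjusted p = 0.0837, limma), and without vehicle library a it passed (adjusted p = 0.0486, limma). With each library left out in turn it ranged from 0.17 to 0.23, with adjusted p up to 0.287 (limma). In cAMP with IL-13 Dnajb1 had 612, 556 and 536 scaled reads, overlapping cAMP alone. The FPKM ratio of Hspa8 to Dnajb1 averaged 93.7 ± 2.72 with glucagon and 102 ± 2.55 with cAMP, against 80.4 ± 1.89 with vehicle (SD, n = 3 each).

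Neither cytosolic HSP90 gene was called in any comparison in the fit of all 15 libraries. Hsp90ab1, the constitutive form, had 41926, 42197 and 43037 scaled reads with glucagon, 42365, 42543 and 42256 with cAMP, and 40562, 40400.2 and 42151 with vehicle. The groups were separated by a few percent at most. Its differences from vehicle were 0.05 ± 0.03 with either stimulus (adjusted p = 0.353 with glucagon and 0.312 with cAMP, limma), and the 95% interval with cAMP ran from -1.37% to 8.21%. Hsp90aa1, the inducible form, had 11825, 10141 and 10617 scaled reads with glucagon, 8876, 10393 and 9045 with cAMP, and 11335, 9587 and 11219.9 with vehicle. Its libraries spread widely inside each group, and cAMP and vehicle overlapped. The difference with cAMP was -0.18 ± 0.07 (95% interval -20.9% to -1.78%, adjusted p = 0.0832, limma). It passed without vehicle b (adjusted p = 0.0123) or without cAMP 2 (adjusted p = 0.0203, limma). Between glucagon and cAMP Hsp90aa1 differed by 0.20 ± 0.07 (adjusted p = 0.168, limma), and by 0.27 without cAMP 2 (adjusted p = 0.049, limma). With each library left out in turn, the difference with cAMP ranged from -0.26 to -0.14 (adjusted p up to 0.271, limma). That between glucagon and cAMP ranged from 0.14 to 0.27 (adjusted p up to 0.54, limma). A share of 58.5% of the 50-base stretches of Hsp90aa1 also occurs in other genes, against 4.49% for Hsp90ab1.

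Hspb1, a small heat shock protein that also binds actin filaments, had 17644, 21241 and 20454 scaled reads with glucagon, 18587, 17648 and 18952 with cAMP, and 18559, 17525 and 17486 with vehicle. A single glucagon library, number 1, lay among the vehicle libraries, and the other two lay above them. The difference with glucagon was 0.14 ± 0.06 (adjusted p = 0.0841, limma). Without glucagon 1 it was 0.22 (adjusted p = 0.00211, limma), and without vehicle a it was 0.17 (adjusted p = 0.0308, limma). With each library left out in turn it ranged from 0.09 to 0.22, with adjusted p up to 0.338 (limma). With cAMP the difference was 0.04 ± 0.06 (adjusted p = 0.63, limma). Glucagon against cAMP gave 0.10 ± 0.06 (adjusted p = 0.435, limma), and 0.18 without glucagon 1 (adjusted p = 0.037, limma). With each library left out in turn this ranged from 0.05 to 0.18, with adjusted p up to 0.745 (limma). In glucagon with IL-13 Hspb1 had 20992, 21424 and 20518 scaled reads, against 19524, 18966 and 18558 in cAMP with IL-13. These groups did not overlap, but the difference of 0.14 ± 0.06 was not called (adjusted p = 0.22, limma). A share of 51.6% of the 50-base stretches of Hspb1 also occurs in other genes, which bears on its level too.

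The mitochondrial chaperonin and its lid were not called with either stimulus. Hspd1 had 9798, 8332 and 9081 scaled reads with glucagon, 8141, 9286 and 8158 with cAMP, and 8852, 7310 and 7994 with vehicle. Hspe1 had 2210.01, 2106 and 2138 scaled reads with glucagon, 1939, 1962 and 1973 with cAMP, and 2331, 1798 and 2004 with vehicle. Vehicle a was the highest and vehicle b the lowest vehicle library for both genes. The difference of Hspd1 with glucagon was 0.17 ± 0.07 (adjusted p = 0.112, limma) and that of Hspe1 0.08 ± 0.08 (adjusted p = 0.525, limma). Without vehicle a they were 0.24 for Hspd1 (adjusted p = 0.0128) and 0.18 for Hspe1 (adjusted p = 0.0458, limma), and both were called. With each library left out in turn, Hspd1 ranged from 0.11 to 0.24 (adjusted p up to 0.382, limma). Hspe1 ranged from -0.007 to 0.18 (adjusted p up to 0.968, limma). Hspd1 was also called without glucagon 2 (0.23, adjusted p = 0.0495, limma) and in the FPKM table (0.15, adjusted p = 0.0401, limma). With cAMP neither was called (0.08 ± 0.07 and -0.05 ± 0.08, adjusted p = 0.441 and 0.667, limma). The FPKM ratio of Hspd1 to Hspe1 lay between 1.21 and 1.68 over the 15 libraries. For each of these genes 44.8% of 50-base stretches occur in other genes, and 8.69% of those of Hspe1 occur in Hspd1.

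Counted together, 2 members rose with cAMP (Hspa8 and Hsph1), 0 fell and 8 were not called. Among all 12703 genes tested, 13.0% were called higher and 12.8% lower in that comparison. With glucagon 1 member rose (Hsph1) and 1 fell (Hspa1b), against 9.35% of all genes called higher and 9.53% lower. Without vehicle a, 5 members were called with glucagon, 4 higher (Hspa8, Hspb1, Hspd1 and Hspe1) and 1 lower (Hspa1b), when 11.8% of all genes were called higher and 12.6% lower. Without glucagon 3 only Hspa1b was called. The median difference of the members was -0.01 with cAMP and 0.06 with glucagon, against 0.01 and 0.02 over all genes tested. Both comparisons use the same vehicle libraries. In fitted value, no member changed by more than 1.5-fold with cAMP (11.7% of all genes did). With glucagon 2 did so (Hspa1a and Hspa1b), against 7.83% of all genes. The 95% intervals of 8 of the 10 members lay within 1.5-fold with either stimulus.

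**Figure D3:**
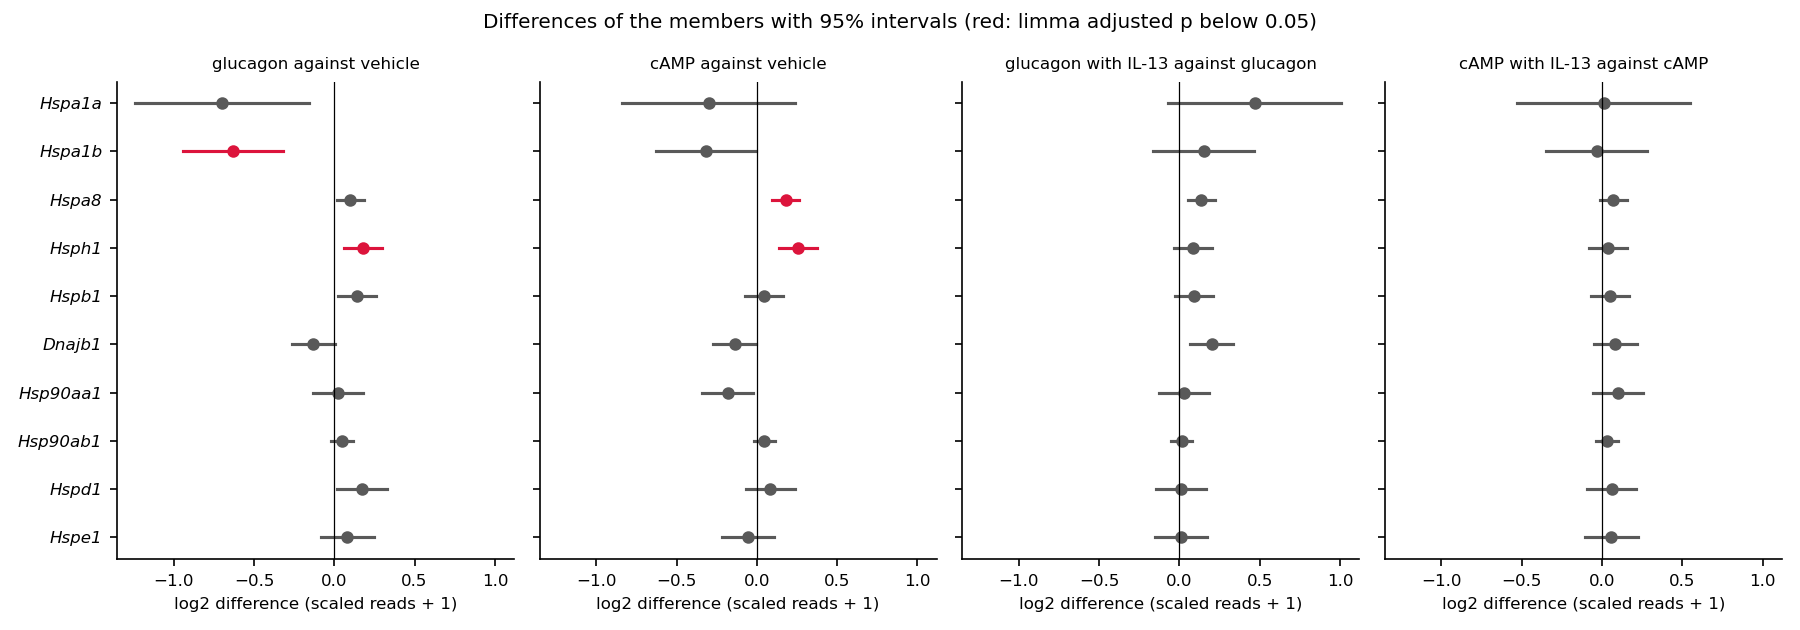
Differences of the 10 members on the scale of log2(scaled reads + 1), with 95% intervals, for 4 comparisons. Red marks the 4 calls at a limma adjusted p below 0.05, which are Hspa1b and Hsph1 with glucagon and Hspa8 and Hsph1 with cAMP, and no member is called with IL-13.

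IL-13 was not shown to change any member. In cAMP with IL-13 against cAMP, 0 of 10 members were called by limma, 0 at an unadjusted p below 0.05, while 2.52% of all genes were called higher and 1.38% lower. At that unadjusted threshold stood 1659 of 12703 genes. Of the 10 differences 9 were positive, from -0.03 to 0.10, and the 95% intervals of 8 members lay within 1.2-fold and those of all 10 within 1.5-fold. In glucagon with IL-13 against glucagon, 0 of 10 members were called by limma, with 2 at an unadjusted p below 0.05 (Hspa8 and Dnajb1). Of all 12703 genes, 2311 were at an unadjusted p below 0.05. Here 3.50% of all genes were called higher and 2.23% lower. All 10 differences were positive, with a median of 0.09 against -0.002 over all genes. The members share libraries and in part reads, so they are not independent, and the counts of positive differences were not tested. Without vehicle a 2 members were called (Hspa8 and Dnajb1), when 5.67% of all genes were called higher and 3.93% lower. In the fit of all libraries the 95% intervals of 7 members lay within 1.2-fold and those of 9 within 1.5-fold, with Hspa1a the exception. As a check of the labels, Cish, a known target of STAT signaling, stood at 1340.1 to 1429 scaled reads in glucagon with IL-13, against 340 to 396 in glucagon alone. The effect of IL-13 was not shown to differ between the stimuli for any member (0 of 10 called by limma, 0 at an unadjusted p below 0.05), and 0.00% of all genes were called (0 of 12703, with 608 at an unadjusted p below 0.05).

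Glucagon and cAMP were also set against each other. Without IL-13, 0 of 10 members were called by limma, against 1.76% of all genes called higher and 2.51% lower in glucagon. At an unadjusted p below 0.05 stood 2 members (Hspa1b and Hsp90aa1) and 1917 of all 12703 genes. With IL-13 in both, 0 of 10 were called by limma, against 2.09% of all genes higher and 2.15% lower in glucagon. At an unadjusted p below 0.05 stood 1 member (Hspb1) and 1739 of all 12703 genes. The most tightly bounded member was Hsp90ab1, whose level with glucagon differed from that with cAMP by between -4.54% and 4.74% (95% interval).

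Inside the groups, some members moved together from library to library. After the group means were taken out, Hsp90aa1 and Hspd1 were correlated with r = 0.937, Hspd1 and Hspe1 with r = 0.766 and Hsp90aa1 and Hspe1 with r = 0.637 over 15 libraries. The points share libraries and their depth and length trends, so these are descriptions. Hspa8 and Hsph1 were correlated over all libraries (r = 0.864) but little inside groups (r = 0.207), so most of their likeness was the difference between groups. Among 9453 genes the pattern most like that of Hspd1 was that of Nampt, the enzyme that makes the precursor of NAD (r = 0.965 over 15 libraries). Cct8, a subunit of the cytosolic chaperonin, was also among the nearest 5 (r = 0.941). Inside groups r was 0.960 for Nampt and 0.955 for Cct8, so these likenesses do not show a shared response to the stimuli. The genes nearest to Hsph1 were Spire1, an actin nucleator (r = 0.958, and 0.831 inside groups), and Sulf2, a sulfatase of heparan sulfate (r = 0.947, and 0.743 inside groups).

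**Figure D4:**
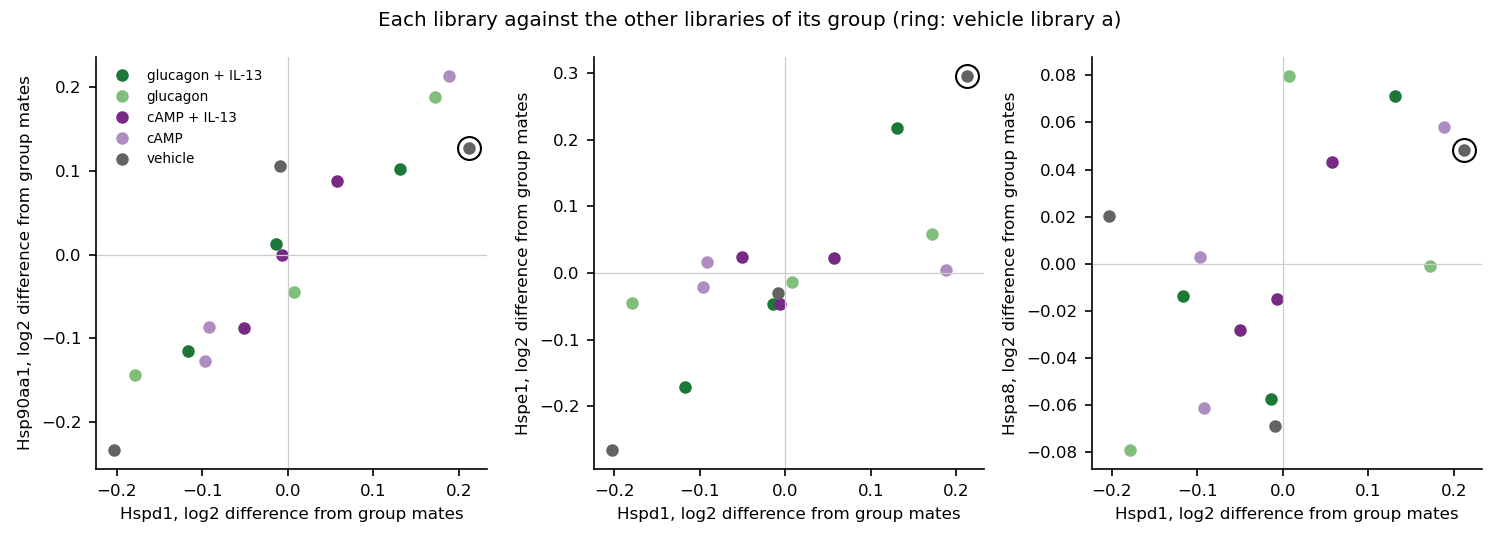
Each library's log2 difference from the other libraries of its group, for Hsp90aa1, Hspe1 and Hspa8 against Hspd1, with a ring around vehicle library a. Hsp90aa1 and Hspd1 deviate together (r = 0.937 with group means removed), in libraries of all 5 groups.

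Other chaperone genes were counted by lists chosen with earlier results of these data known. Of 34 other cytosolic heat shock proteins and co-chaperones tested, 4 rose and 2 fell with glucagon (9.35% of all genes rose and 9.53% fell), and 5 rose and 6 fell with cAMP (13.0% and 12.8% of all genes). The median difference of this list was -0.01 with glucagon and 0.03 with cAMP, against 0.02 and 0.01 over all genes. Bag3, which links HSP70 to small heat shock proteins and to autophagy, rose by 0.54 ± 0.05 with glucagon and 0.39 ± 0.05 with cAMP (adjusted p = 4.11e-07 and 1.49e-05, limma). Its partner Hspb8 rose by 0.52 ± 0.04 and 0.48 ± 0.04 (adjusted p = 4.78e-09 and 1.20e-08, limma), and rose again with IL-13 in glucagon (0.23 ± 0.04, adjusted p = 0.0008, limma). Of the 34 genes, 1 rose and 0 fell with IL-13 in glucagon (3.50% and 2.23% of all genes). In cAMP, 0 rose and 0 fell with IL-13 (2.52% and 1.38% of all genes). Fkbp5, an HSP90 partner of steroid receptors, fell by 0.41 with either stimulus (adjusted p = 0.000509 and 0.000325, limma). Dnajb4, an HSP40 close to Dnajb1, had a difference of -0.61 ± 0.09 with cAMP (adjusted p = 5.02e-05, limma), and Dnajb5, another HSP40, one of -0.50 ± 0.09 (adjusted p = 0.000256, limma). Hspa2, an HSP70 best known from the testis, rose by 0.52 ± 0.13 with cAMP (adjusted p = 0.0074, limma). Of the heat shock factors Hsf1, Hsf2 and Hsf4 and their binding protein Hsbp1, 0 of 4 were called in any of the 7 comparisons, and Hsf1 stood at 535 to 621 scaled reads with glucagon and 581 to 641 with cAMP, against 633 to 717 with vehicle. Of 14 subunits of the cytosolic chaperonin and prefoldin 0 were called with either stimulus.

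Chaperones of organelles were read from further lists of that kind. In mitochondria, 2 of 13 tested genes rose and 1 fell with glucagon (9.35% and 9.53% of all genes), and 4 rose and 1 fell with cAMP (13.0% and 12.8% of all genes). The list's median difference was 0.06 with glucagon and 0.10 with cAMP, against 0.02 and 0.01 over all genes. Grpel2, a nucleotide exchange factor of mitochondrial HSP70, rose by 0.93 ± 0.05 with glucagon and 1.14 ± 0.05 with cAMP (adjusted p = 3.58e-10 and 1.18e-11, limma). It rose again with IL-13, by 0.29 in glucagon and 0.24 in cAMP (adjusted p = 0.00241 and 0.0121, limma). Of these 13 genes, 1 rose and 1 fell with IL-13 in glucagon (3.50% and 2.23% of all genes). In cAMP, 1 rose and 0 fell with IL-13 (2.52% and 1.38% of all genes). Hscb, a DNAJ protein of iron-sulfur cluster assembly, rose by 0.45 ± 0.14 with cAMP (adjusted p = 0.0259, limma). Hspa9, the mitochondrial HSP70 itself, rose by 0.16 and 0.13 (adjusted p = 0.0131 and 0.0407, limma), and Clpx, a protein unfoldase, fell by 0.21 with glucagon and by 0.24 with cAMP (adjusted p = 0.0148 and 0.00428, limma). In the endoplasmic reticulum, 6 of 17 tested genes rose and 1 fell with each stimulus (9.35% and 9.53% of all genes with glucagon, 13.0% and 12.8% with cAMP). The list's median difference was 0.15 with glucagon and 0.09 with cAMP. The 1 that fell was Hspa5, the HSP70 of that compartment, at -0.41 ± 0.04 with glucagon and -0.50 ± 0.04 with cAMP (adjusted p = 2.40e-07 and 1.29e-08, limma). With IL-13 Hspa5 was higher by 0.34 ± 0.04 in glucagon and 0.37 ± 0.04 in cAMP than with the stimulus alone (adjusted p = 1.55e-05 and 5.39e-06, limma). Of these 17 genes, 1 rose and 1 fell with IL-13 in glucagon (3.50% and 2.23% of all genes). In cAMP, 1 rose and 0 fell with IL-13 (2.52% and 1.38% of all genes). Dnajb9, a DNAJ partner of Hspa5, rose by 0.42 with glucagon and 0.63 with cAMP (adjusted p = 0.0344 and 0.00184, limma). Hyou1, the large HSP70 relative of that compartment, rose by 0.19 and 0.37 (adjusted p = 0.0456 and 0.000193, limma).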

How the data were processed

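Total RNA of primary hepatocytes was made into TruSeq libraries, and reads were aligned and summarised by the authors with TopHat 1.3.2 and Cufflinks 2.0.2 on mm10. The authors deposited a table of tag values, a signal in steps of 1 read divided by a library factor (98.6% to 98.9% of values within 0.1 of a whole step), called scaled reads here, and a table of FPKM, used for levels between genes. The deposited vehicle columns carry numbers that match no title, and a, b and c name these 3 libraries. The strand setting of the counting and the gene annotation are not given in the sources used here. Depth was 15567724 to 24246024 estimated reads per library.

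Differences were tested with limma 3.58.1 in R 4.3.3 on log2(scaled reads + 1), with group as the only term over all 15 libraries and a robust trend of the variance. Genes entered at 10 or more scaled reads in 3 or more libraries (12703 genes), and p-values were adjusted over all of them after Benjamini and Hochberg (threshold 0.05). The pseudocount of 1 understates changes of low genes such as Hspa1a. The fit was tested on simulated data. Because the deposited values are scaled, tests on counts were not run. Of the 24347 entries, 27 had symbols turned into dates and 1285 were small RNAs, and both stayed in the table. Alternatives were the pseudocount, the filter, library-size scaling, the FPKM table, only the groups compared, each library left out, the sum of Hspa1a and Hspa1b, and a replicate block. Named genes were all members, list genes that were among the 3 called with the largest differences in at least 1 comparison, and the genes most like Hsph1 and Hspd1. The heat shock factors, Pck1, Cish and single cell type markers were named outside this rule. The members and lists were chosen with earlier results of these data known. Shared stretches were counted as 50-base windows of GENCODE M21 transcripts.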

Additional observations from a re-analysis of the deposited data

How the results depend on the processing

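No call of a member reversed under any alternative. Hspa8 with cAMP was called under 23 of 23 settings and Hspa1b with glucagon under 22 of 22. Hsph1 with cAMP lost its call with only the groups compared (adjusted p = 0.053, limma). Hsph1 with glucagon lost it with library-size scaling (0.0879), the FPKM table (0.0712), only the groups compared (0.209, limma) and the 5 libraries named above. Library-size scaling called 4 members with cAMP (2 higher, and Dnajb1 and Hsp90aa1 lower) and 1 with glucagon, and moved the median of all genes by at most -0.05. That shift was the one with cAMP, where Dnajb1 went from -0.14 to -0.19 and Hsp90aa1 from -0.18 to -0.23. The cause was not tested.

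With only the groups compared, fewer libraries estimate the spread. Members called were then 1 with cAMP, 1 with glucagon and 2 between glucagon and cAMP with IL-13 in both (Hspb1 and Hsp90aa1). Genes called were 2033 with cAMP (3272 in the fit of all libraries), 1311 with glucagon (2399), 962 for IL-13 in cAMP (495), 1207 between the stimuli with IL-13 (539) and 4 for the interaction, which is how IL-13 effects differ between the stimuli (0). The FPKM table called 1 member for IL-13 in glucagon (Hspa8) and 1 gene for the interaction. Leaving out each library gave 2 to 3 members called with cAMP, 1 to 5 with glucagon, 0 to 2 for IL-13 in glucagon and 0 to 1 for glucagon against cAMP. In the same fits 2635 to 3669 genes were called with cAMP and 1983 to 3099 with glucagon. Genes called ranged from 282 to 765 for IL-13 in cAMP, 431 to 1217 for IL-13 in glucagon (728 in the fit of all libraries), 355 to 899 for glucagon against cAMP (543), 323 to 846 between the stimuli with IL-13 and 0 to 2 for the interaction. The highest count of each came without vehicle a.

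The replicate block could be fitted only over the 12 libraries with numbers. Libraries that share a number deviated from their group means with r from -0.18 to 0.22, over 0.1 in 3 of 18 pairs, so the numbers were not taken to pair the samples. With the replicate block 1 member was called for IL-13 in glucagon (Hspa8, adjusted p = 0.0365, limma) and 1 gene for the interaction. On the same 12 libraries without a block, a fit chosen after seeing the data, 1 member was called for IL-13 in glucagon (Hspa8), and genes called were 785 for IL-13 in cAMP, 1242 for IL-13 in glucagon, 917 for glucagon against cAMP, 869 between the stimuli with IL-13 and 4 for the interaction. The sum of Hspa1a and Hspa1b with a library left out was also chosen after seeing the data. The planned tests and normalizations for counts were not run, since the deposited values are scaled. Hspa1a, at 10.3 to 28.3 scaled reads, limits what its own values can show.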

Other observations

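Immediate early genes, which cell dissociation is known to switch on together with heat shock genes, were read from a list of 16 chosen with earlier results of these data known. With glucagon 4 rose and 11 fell (9.35% and 9.53% of all genes), and with cAMP 6 rose and 8 fell (13.0% and 12.8% of all genes). Nr4a1, an orphan nuclear receptor induced by cAMP signaling, rose by 3.08 ± 0.07 with glucagon and 3.46 ± 0.07 with cAMP on the log2 scale (adjusted p = 2.57e-16 and 3.31e-17, limma). Egr1, a zinc finger transcription factor of growth signaling, had differences of -3.01 ± 0.10 and -3.16 ± 0.10 (adjusted p = 3.17e-13 and 9.07e-14, limma). Socs3, the feedback inhibitor of STAT signaling, rose by 1.89 with glucagon and 3.02 with cAMP (adjusted p = 5.19e-11 and 4.04e-14, limma). With IL-13 Socs3 rose further, by 0.68 in glucagon and 0.43 in cAMP (adjusted p = 0.000161 and 0.0129, limma). Of the 16 early genes, 3 rose and 1 fell with IL-13 in glucagon (3.50% and 2.23% of all genes). In cAMP, 2 rose and 1 fell with IL-13 (2.52% and 1.38% of all genes). Among the heat shock chaperones described above, the difference of greatest size with a stimulus was that of Hspa1a with glucagon (-0.70, not called).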
